A study of Mus musculus with 4 samples.

Results

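The 1021 shared distal intergenic peaks are sites of Flag ChIP-seq signal that lay far from genes and were found in both libraries of the study. They were the replicate 1 peaks on chromosomes 1 to 19 that overlapped a replicate 2 peak by at least 1 bp and whose summit, the base of highest signal, met 3 conditions on position. The summit lay outside every protein-coding gene, more than 10000 bp from the closest end of a protein-coding gene, and more than 1000 bp from any end of another annotated gene such as a long noncoding RNA (lncRNA) or a microRNA. They made up 9.06% of the 11266 replicate 1 peaks on these chromosomes that had a partner in replicate 2, and the list held 12627 peaks there with or without one. Because the rule used the calls of both libraries, the strength of these peaks and their overlap are given as a description.

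Chromatin came from lineage-negative bone-marrow cells of C57BL/6 mice, 8 weeks old, of the genotype 3xFlag-Nynrin-Tg, a transgene that encodes Nynrin with 3 Flag tags. All 4 libraries of the study were made from such cells: 2 by precipitation with an antibody to Flag and 2 from input chromatin, which were not analysed here. No untagged cells or control antibody were analysed here, and neither the promoter that drives the transgene nor the number of animals in a library is given in the labels. The labels do not state whether each replicate had its own animals, so the sharing of a peak may be technical. Positions are in mm10. Peak lists hold no expression values, so the labelled cell type could not be checked against its markers, and no read counts, so the depth is unknown.

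Nynrin is a protein with domains related to retroviral integrases and to an RNA-cleaving nuclease family. In the genome, sites far from gene starts often act as enhancers, which are bound by transcription factors and raise the activity of genes that may lie many kilobases away. In blood progenitor cells, enhancers of this kind control genes for lineage regulators, growth factor receptors and adhesion proteins, and some of them are transcribed into lncRNAs.

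A genome sequence was not used here, so the letters under most of the peaks are not shown. RefSeq's table of annotated starts in GRCm38.p6, the assembly behind mm10, covers a small number of them. Of the 1021 peaks, 9 overlapped a window from 250 bases before to 50 bases after such a start, in each case of a lncRNA gene. In 4 of these the replicate 1 summit fell inside the window. Those windows are printed because they are the stretches where signal and sequence can be read together. Each is written in the direction of the lncRNA, base 251 is the annotated start, and capitals mark the 21 bases centred on the replicate 1 summit.
Gm30198 (chr12:102451483-102451782, plus strand): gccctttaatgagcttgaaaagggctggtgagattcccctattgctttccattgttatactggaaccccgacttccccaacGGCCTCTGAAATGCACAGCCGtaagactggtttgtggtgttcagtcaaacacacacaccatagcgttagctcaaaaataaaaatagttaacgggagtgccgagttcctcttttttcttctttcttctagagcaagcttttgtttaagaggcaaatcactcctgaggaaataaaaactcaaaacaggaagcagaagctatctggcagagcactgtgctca
Gm31814 (chr16:24193913-24194212, minus strand): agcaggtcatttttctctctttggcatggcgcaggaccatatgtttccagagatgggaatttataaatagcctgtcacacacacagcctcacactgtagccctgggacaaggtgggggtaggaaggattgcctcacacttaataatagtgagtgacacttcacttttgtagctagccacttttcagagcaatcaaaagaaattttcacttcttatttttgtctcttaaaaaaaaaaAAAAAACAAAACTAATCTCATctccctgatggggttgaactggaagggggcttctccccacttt
Gm41485 (chr16:87612372-87612671, minus strand): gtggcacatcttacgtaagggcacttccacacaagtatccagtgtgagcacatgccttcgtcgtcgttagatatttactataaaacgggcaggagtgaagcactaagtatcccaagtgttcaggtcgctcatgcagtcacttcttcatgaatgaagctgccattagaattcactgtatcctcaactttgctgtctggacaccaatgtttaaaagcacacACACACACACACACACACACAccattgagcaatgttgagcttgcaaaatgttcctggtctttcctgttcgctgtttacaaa
Gm46828 (chr3:144232197-144232496, minus strand): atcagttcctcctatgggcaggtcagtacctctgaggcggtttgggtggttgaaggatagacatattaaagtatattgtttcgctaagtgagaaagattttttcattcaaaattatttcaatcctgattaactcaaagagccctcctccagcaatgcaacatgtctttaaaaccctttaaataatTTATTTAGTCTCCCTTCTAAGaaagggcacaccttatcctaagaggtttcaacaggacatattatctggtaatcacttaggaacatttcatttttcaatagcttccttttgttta

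The summits lay 159, 4, 21 and 55 bp from these annotated starts in Gm30198, Gm31814, Gm41485 and Gm46828. Each of these starts lay inside the bounds of its gene and not at the gene's outer end. The rule kept only summits more than 1000 bp from any end of such a gene. The Gm46828 peak (chr3:144232000-144232650, 27046 bp from Lmo4, a LIM-domain cofactor gene) reached 6.82 in replicate 1 and 5.05 in replicate 2 in fold enrichment, the authors' ratio of signal over background at the summit. Gm31814 (4.75 and 6.64, 199384 bp from Lpp), Gm41485 (4.59 and 6.11) and Gm30198 (3.63 and 4.52) were lower in replicate 1. The summit of Gm41485 fell within a run of 27 alternating A and C bases, and that of Gm31814 beside a run of 16 A bases, so both windows hold simple repeats at the summit. GC content was 44.0% in Gm30198, 41.7% in Gm31814, 44.3% in Gm41485 and 36.0% in Gm46828. Over all 32817 windows of the table the median was 52.7% (quartiles 45.7 to 61.7%). That table includes starts of protein-coding genes, so this background, also used for the motifs below, is an unlike set.

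Both strands of these windows were searched for 8 motifs of factors that act in blood or at promoters. The letters were AGATAA for factors of the GATA family, ACCGGAAGT for the ETS family, TGTGGT for the RUNX family, TTGCNNAA for the C/EBP family, TGANTCA for AP-1 and CACGTG for E-box factors, and the motifs of CTCF and NRF1 were searched too. The window of Gm30198 held TGTGGT at bases 114 to 119, which 16.8% of all windows held. Gm41485 held TTGCNNAA at bases 244 to 251, which end at the annotated start, and at 260 to 267. At least 1 match was held by 10.8% of all windows. Gm46828 held AGATAA at bases 247 to 252, also at the start, against 11.2% of all windows, and Gm31814 held none of the 8. None of these matches overlapped another. With short motifs and 4 windows these matches are a description.

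MicroRNAs, short RNAs that silence messengers through pairing of bases 2 to 8 (the seed), gave another set of sequences that can be shown. Of 919 microRNA hairpins on these chromosomes 18 (1.96%) lay within 10000 bp of a distal intergenic peak, and 11 of the 1021 peaks were involved. The mature microRNAs printed here are those of the let-7, miR-17-92, miR-34a, miR-181d and miR-23a loci, grouped by locus and shown because these families are known to act in blood cells. Seeds are in capitals, and the sequences are RefSeq's.
mmu-let-7a-5p: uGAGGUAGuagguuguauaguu
mmu-let-7d-5p: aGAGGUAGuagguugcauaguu
mmu-let-7f-5p: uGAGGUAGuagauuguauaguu
mmu-miR-17-5p: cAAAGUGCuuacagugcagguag
mmu-miR-20a-5p: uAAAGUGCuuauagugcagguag
mmu-miR-18a-5p: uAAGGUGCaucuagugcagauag
mmu-miR-19a-3p: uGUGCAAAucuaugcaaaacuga
mmu-miR-19b-3p: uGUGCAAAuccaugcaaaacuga
mmu-miR-92a-3p: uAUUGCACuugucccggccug
mmu-miR-34a-5p: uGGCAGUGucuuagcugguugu
mmu-miR-181d-5p: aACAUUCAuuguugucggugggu
mmu-miR-23a-3p: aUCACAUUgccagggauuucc
mmu-miR-27a-3p: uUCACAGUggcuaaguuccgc
mmu-miR-24-3p: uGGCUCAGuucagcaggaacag

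The let-7 microRNAs let-7a, let-7d and let-7f carry 1 seed, GAGGUAG. Within the miR-17-92 cluster, miR-17 and miR-20a share AAAGUGC, and miR-19a and miR-19b share GUGCAAA. This cluster, known for driving growth of lymphoid and myeloid progenitors, had 2 distal intergenic peaks upstream of its first hairpin Mir17. The nearer (chr14:115041899-115042481) lay 1376 bp from Mir17, with fold enrichments of 5.40 in replicate 1 and 6.11 in replicate 2. The farther (chr14:115040435-115041003) had 5.97 and 4.52. The closest protein-coding gene, Gpc5, was 49906 bp from the nearer summit and lacked a gene-end summit (one at most 1000 bp from either end) in at least 1 replicate.

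At the let-7 locus, whose products are known to hold back cell proliferation, 2 replicate 1 peaks (chr13:48545334-48545616 and chr13:48545859-48546844) overlapped a single replicate 2 peak with a fold enrichment of 9.57. Their own fold enrichments were 2.51 and 4.47. Upstream of the Mir23a, Mir27a and Mir24-2 hairpins, a locus known to favour myeloid over lymphoid fate, peaks at chr8:84197164-84199042 and chr8:84200567-84200933 had 3.98 and 3.25 in replicate 1 and 11.7 and 8.24 in replicate 2. The first of these was at the 97.9 percentile of replicate 2 and the 45.9 percentile of replicate 1. A peak 8066 bp from Mir181d had 3.42 and 6.64. Downstream of Mir34a, a p53 target, a peak 7800 bp away (chr4:150076241-150076713) had 4.41 and 9.57. The remaining hairpins were Mir6363, Mir6367, Mir7688 and Mir3074-2.

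How strong the distal intergenic peaks were was set beside the other shared peaks. In replicate 1 they had a median fold enrichment of 4.10 (quartiles 3.53 to 4.83, range 2.30 to 10.8). Shared peaks with a summit within 1000 bp of a protein-coding gene end, termed gene-end peaks, had a median of 4.20. In replicate 2 the best overlapping peaks of the distal sites had a median of 5.05 (quartiles 4.25 to 6.11, range 2.62 to 15.9), against 7.71 for the partners of gene-end peaks. The distal sites were thus near the middle of the replicate 1 list and well under the gene-end peaks in replicate 2. Their median percentile by fold enrichment among all peaks was 52.1 in replicate 1 and 57.7 in replicate 2, and that of gene-end peaks was 54.8 and 84.3.

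Significance and width followed the same order. The median −log10 q, the peak caller's value, was 4.44 in replicate 1 and 7.02 in replicate 2 for distal intergenic sites, and 6.45 and 16.8 for gene-end peaks. Distal sites were 454 bp wide at the median in replicate 1 and their partners 727 bp, against 647 and 1257 bp at gene ends. Deep intragenic peaks, whose summit lay inside a protein-coding gene more than 10000 bp from any gene end, resembled the distal sites, with medians of 4.03 in replicate 1, 5.05 in replicate 2 and 461 bp. Both lists placed 71 distal sites (6.95%) above their upper quartile of fold enrichment, against 1670 gene-end peaks (26.8%). A −log10 q of 5 or more in each of the lists was reached by 351 (34.4%). Across the 1021 sites, which share their libraries, the fold enrichments of the replicates had a Spearman's rho of 0.13 and the −log10 q values 0.32.

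**Figure D1:**
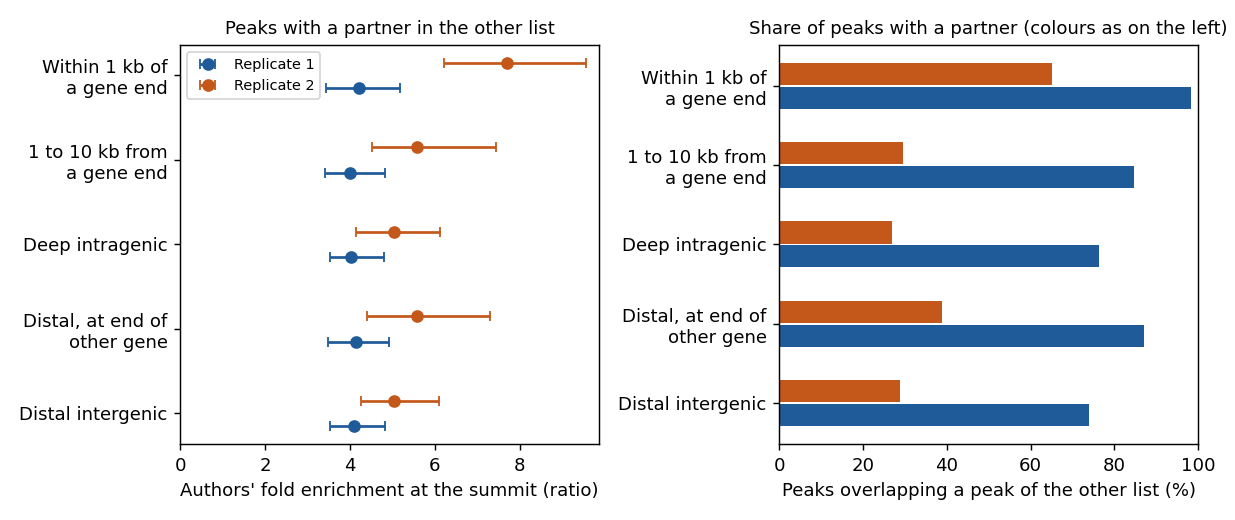
Left, the median (point) and quartiles (bar) of the authors' fold enrichment of peaks with a partner in the other list, by the class of the peak's own summit, with replicate 1 in blue and replicate 2 in orange. Right, the percentage of each list's peaks with a partner, where distal intergenic peaks reach 73.9% in replicate 1 and 28.9% in replicate 2 and gene-end peaks 98.2% and 65.1%.

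Distal intergenic peaks were shared less than gene-end peaks in either direction. Of 1381 such peaks in replicate 1, 73.9% had a partner in replicate 2, against 98.2% of gene-end peaks, 87.1% of distal peaks at the end of another gene, 84.6% of peaks 1 to 10 kb from a gene end and 76.3% of deep intragenic peaks. In replicate 2, which had 3424 distal intergenic peaks, 28.9% had a partner in replicate 1, against 65.1% of gene-end peaks, 38.8% of distal peaks at the end of another gene, 29.5% of peaks 1 to 10 kb from a gene end and 26.8% of deep intragenic peaks. The 360 distal peaks of replicate 1 without a partner had a median fold enrichment of 3.81 and a median width of 316 bp, so they were lower and narrower than the shared ones.

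The summits of the paired peaks lay close together. The median gap was 129 bp (quartiles 58 to 237 bp, largest 4644 bp), and 693 sites (67.9%) had summits within 200 bp. In replicate 2 the best partner was itself distal intergenic for 1002 sites, at the end of another gene for 13, and 1 to 10 kb from a protein-coding gene for 6. Broad replicate 2 peaks were counted more than once, since 56 sites shared 28 partners and the 1021 sites had 993 distinct partners.

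The peaks nearest the limits of the rule varied on either side. Just inside the 10000 bp limit was a peak 10013 bp from Alg8 (3.69 in replicate 1 and 3.71 in replicate 2), and just outside was one 9909 bp from Cln6 (3.78 and 9.03). Around the 1000 bp limit, a peak near Wapl (3.84 and 5.58) lay 1005 bp from the end of a noncoding gene and was kept, and a peak near Dusp1 (4.90 and 6.64) at 988 bp was left out. The smallest overlap with replicate 2 was 4 bp, near Tmed10 and near Lmntd1.

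Distances to genes covered a wide range. The median distance from the summit to the closest protein-coding gene end was 27192 bp (quartiles 15967 and 55061 bp). Between 10 and 20 kb lay 372 sites (36.4%), between 20 and 50 kb 362, between 50 and 100 kb 152, between 100 and 250 kb 117, and 18 lay beyond 250 kb. Fold enrichment varied little over this range beside its quartiles, with replicate 1 medians of 4.07 in the nearest group and 4.63 in the farthest, and replicate 2 medians of 5.05 and 4.64. Where the strand of the closest gene was known, for 774 sites, the start of the gene was the nearer end for 469 (60.6%) and its 3′ end for 305.

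The 5 most remote sites lay in stretches without protein-coding genes, and the site near Adgrl2 was inside the lncRNA gene Gm30382. The farthest had as its closest gene Zeb2, which encodes a transcriptional repressor that acts in the epithelial to mesenchymal transition and in blood. That site was 1253184 bp from Zeb2 (chr2:46370586-46370834, 3.69 in replicate 1 and 4.25 in replicate 2). The others were 463879 bp from Gm11232 (5.97 and 4.52), 416631 bp from Zfp462 (3.38 and 4.77), 404654 bp from the adhesion receptor gene Adgrl2 (3.74 and 5.18) and 397554 bp from Sugct (4.96 and 5.31). None of them ranked high in both lists.

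**Figure D2:**
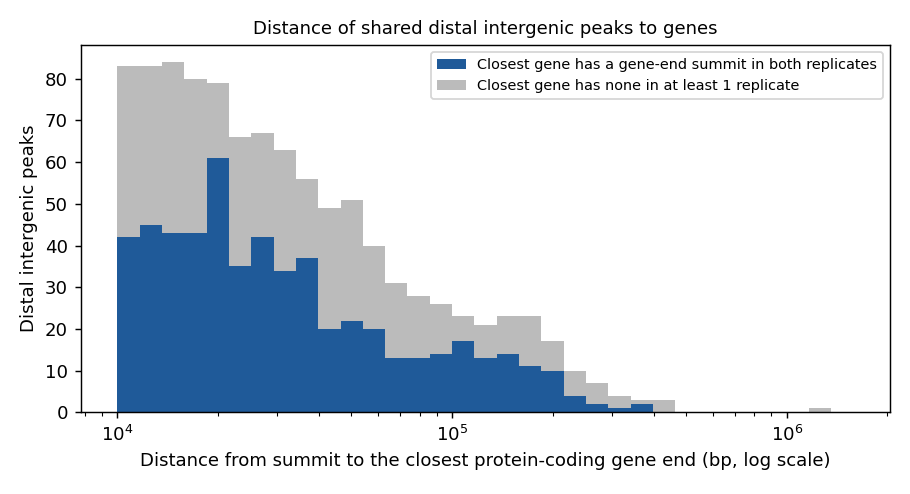
Number of distal intergenic peaks (vertical axis) by the distance from the summit to the closest protein-coding gene end (bp, log scale), stacked by whether that gene had a gene-end summit in both replicates (blue) or not (grey). Most sites lie between 10 and 50 kb, and blue makes up 55.4% of those at 10 to 20 kb and 59.0% of those at 100 to 250 kb.

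Whether distal sites lay near genes that carried Flag signal at their own ends was examined next, a measure the rule did not use. In 558 cases (54.7%, exact Clopper-Pearson 95% interval 51.5 to 57.7%, which covers the sampling of peaks only) the closest protein-coding gene had a gene-end summit, that is one no more than 1000 bp from an end, in each replicate. Of all 20661 protein-coding genes on these chromosomes 33.5% had one. The share was 57.4% (exact 95% interval 50.6 to 64.0%) for shared distal peaks at the end of another gene, 46.8% for shared peaks 1 to 10 kb away and 44.0% for deep intragenic peaks. Counting each gene once, 380 of the 735 closest genes (51.7%) had such a summit, and these 735 were 3.56% of all genes. It was 55.4% at 10 to 20 kb, 56.9% at 20 to 50 kb, 47.4% at 50 to 100 kb and 59.0% at 100 to 250 kb, and 5 of the 18 beyond 250 kb. No test of the difference from all genes was made.

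Distal sites often had another distal site nearby. Within 25000 bp 393 of them (38.5%, exact 95% interval 35.5 to 41.6%) had another summit of their own kind. This was 38.4% for peaks 1 to 10 kb from a gene, 37.9% for deep intragenic peaks, 34.4% for gene-end peaks and 16.6% for distal peaks at the end of another gene. The interval for distal sites treats them as independent, although neighbours count each other and 56 sites shared 28 replicate 2 partners. Of the 735 closest genes 548 had 1 distal site and 187 had 2 or more, which together held 473 sites.

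The sites were unevenly spread over chromosomes. The rule left 1176 Mb of sequence in which a distal site could lie, with 0.868 sites per Mb of it, a measure chosen after the data were seen. The density was highest on chromosomes 19 (1.99 per Mb), 10 (1.47) and 2 (1.43) and lowest on chromosomes 8 (0.460) and 3 (0.525). As a share of the shared peaks of a chromosome, distal sites were highest on chromosome 18 (13.7%) and lowest on chromosome 11 (4.97%). On chromosome 19 this share was 9.36%, near the 9.06% of all these chromosomes. By number, chromosome 2 led with 106 sites, followed by chromosome 1 with 93 and chromosome 10 with 89.

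Which genes lay nearby was described with 11 lists of genes, chosen with earlier results of these data known. A gene was counted when a distal site lay within 100000 bp of one of its ends, and 1891 of 20661 genes (9.15%) met this. Of the blood regulators, 32 of 124 (25.8%) did. This joined 2 lists: 17 of 46 receptors and surface proteins of blood cells (37.0%) and 15 of 78 transcription factors and related regulators (19.2%). Blood regulators also have more open space around them, with a median of 77.6 kb per gene in which a site could lie, against 37.5 kb for all genes. Per Mb of that space there were 10.3 gene and site pairs for the receptors and 3.38 for the transcription factors, against 2.58 for all genes. Per space, the transcription factors thus lay closer to all genes than the receptors did. Gene-end summits in both replicates were found at 30.6% of the 124 blood regulators, near the 33.5% of all genes.

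Among the receptors, Ccr2, a monocyte chemokine receptor, had 4 sites within reach, and Cxcr4, Ifngr1, Ly6a, Notch2 and Ptprc had 3 each. A site within reach of a gene could lie nearer to another gene. Cxcr4, the receptor that keeps stem and progenitor cells in the marrow, was the closest gene of 5 sites in all. Notch2 was the closest gene of 3 sites, Ptprc of 2, Ccr2 and Ifngr1 of 1 each, and Ly6a of 0. Ifngr1 encodes a chain of the interferon gamma receptor, Ly6a the stem cell antigen Sca-1, and Ptprc the leukocyte phosphatase CD45. The Ifngr1 site nearest to the gene, at 31788 bp, had 3.69 in replicate 1 and 3.72 in replicate 2. The others lay nearer to Il20ra and overlapped 1 replicate 2 peak of 8.80, with 5.55 and 3.54 in replicate 1. The Notch2 sites reached 5.10 in replicate 1 and 4.07 in replicate 2. Csf2ra, a chain of the receptor for granulocyte-macrophage colony-stimulating factor, had 2 sites, and 1 of them (chr19:61265219-61266921) had the high values of 8.52 in replicate 1 and 7.58 in replicate 2 with no gene-end summit in both replicates at the gene itself. A site 42513 bp from the start of Cd44, a hyaluronan receptor, had 5.24 and 8.77. A site beyond the 3′ end of Ifnar1, which encodes a chain of the type I interferon receptor, had 5.69 and 7.68. Slamf1, Cd34 and Cd48, surface markers used to sort stem and progenitor cells, had 2, 1 and 1 sites. These sites had 2.76 to 5.11 in replicate 1.

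Among the transcription regulators, Trib1 had 4 sites within 100 kb and 6 as closest gene. Trib1 encodes a pseudokinase that targets C/EBP alpha for breakdown. Cebpb, a myeloid factor gene, had 2 sites beyond its 3′ end, at 63624 bp (4.45 in replicate 1 and 9.83 in replicate 2) and at 85081 bp (5.03 and 13.3). The second Cebpb value was among the highest of all distal sites in replicate 2. In replicate 1 that site was at the 77.4 percentile of all peaks. A site 11990 bp from Lmo2, a cofactor of early blood formation, had 5.21 and 6.38. Runx1, a master regulator of blood stem cells, had 2 sites within reach and 4 as closest gene, with replicate 1 values of 3.18 to 4.17 and replicate 2 values of 3.40 to 5.31. Irf2, Klf6 and Runx3 had 2 each, and Bcl11a, Egr1, Foxo1, Hhex, Ikzf1, Klf4, Ldb1 and Tcf3 had 1 each. The other regulators, which include Gata2, Spi1, Myb, Meis1 and Gfi1, had none within 100 kb that met the rule.

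Immediate early genes, which respond within minutes to growth factors and stress, had the highest share of the lists, 11 of 25 (44.0%). Atf3 had 5 sites within 100 kb and Fos 4. A site 18526 bp from the start of Fos (chr12:85455033-85455574) had 5.54 in replicate 1 and 11.7 in replicate 2. Dusp6, a phosphatase gene that damps ERK signalling, was the closest gene of 4 sites, with 3.79 to 5.11 in replicate 1 and 4.25 to 7.71 in replicate 2. Fosl2 had a site with 3.88 and 5.31. Of the 25 genes 16 (64.0%) had gene-end summits in both replicates. Their median space per gene was 70.8 kb, with 11.1 gene and site pairs per Mb, against 11.99 for the myeloid list and 2.58 for all genes. It shares Egr1, Klf4 and Klf6 with the blood regulators.

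Markers of blood lineages differed among themselves. Of 27 myeloid genes 9 (33.3%) had a site within reach. There were 4 at Fcgr3, an immunoglobulin receptor, 4 at Ccr2, and 1 each at Anxa1, Camp, Itgam, Lcn2, Ltf, S100a8 and S100a9. Only 5 of the 27 (18.5%) were the closest gene of a site, and Fcgr3 was not among them. Ccr2 and Itgam are also in the receptor list. The site between S100a8 and S100a9, which encode the subunits of calprotectin, had 4.26 in replicate 1 and 4.78 in replicate 2, and the site near Itgam had 3.61 and 4.78. Of 22 megakaryocyte genes 5 (22.7%) had a site within reach, namely Pf4, Ppbp, Cd9, Gp1bb and Thbs1. Only 2 of the 22 (9.09%), Thbs1 and Cd9, were the closest gene of a site. Of 28 lymphoid genes 2 had a site within reach, namely Cd93 with 1 site and the natural killer receptor gene Klrb1c with 3. Klrb1c was the closest gene of 2 of them, with 4.94 in replicate 1 and 8.77 in replicate 2 at the higher-ranking. Of 28 erythroid genes only Tfrc, the transferrin receptor gene, had one (3.57%), while 21.4% had gene-end summits in both replicates. Gene and site pairs per Mb of space were 6.19 for the megakaryocyte list, 3.52 for the lymphoid and 0.765 for the erythroid. All genes had 2.58.

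Genes of other cell types and of functions shared by all cells were the remaining lists. Of 20 stromal and endothelial genes 3 did (Adipoq, Pecam1 and Sp7), and none of those 20 had gene-end summits in both replicates. Of 19 neuron, muscle, liver and islet genes none had either. Their median space per gene was 39.6 kb, against 37.5 kb for all genes. With only 19 genes, whether this list differed from all genes was not tested. Of 56 cytosolic ribosomal protein genes 87.5% had gene-end summits in both replicates and 5.36% a distal site within 100 kb, and their median space was 15.7 kb. Of 25 genes of the mitochondrial permeability transition pore, the subject of the study, 4 (16.0%) had a site within reach, and these were Atpif1, Bcl2, Hk2 and Slc25a3. A site 22961 bp from the start of the hexokinase gene Hk2 had 4.54 in replicate 1 and 6.38 in replicate 2. A site 26285 bp from Bcl2, which guards the outer mitochondrial membrane, had 3.52 and 2.64. Gene and site pairs per Mb of space were 2.37 for the ribosomal list, 2.17 for stroma and endothelium and 6.18 for the pore list. All genes had 2.58.

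**Figure D3:**
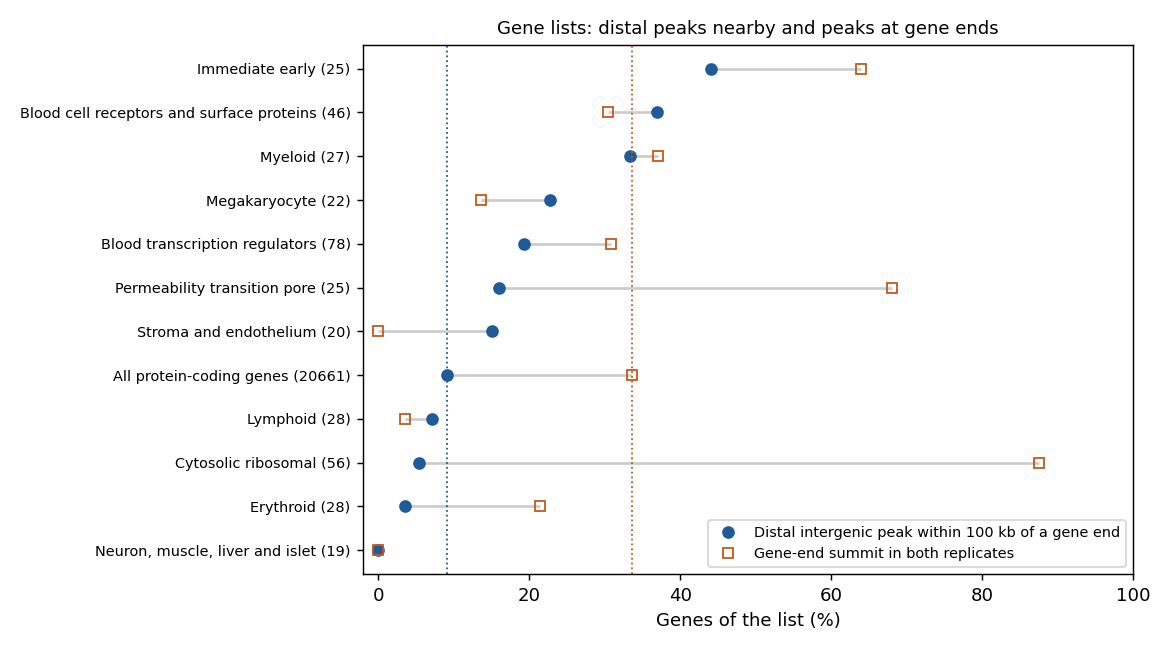
Percentage of genes of each list (number of genes in brackets) with a distal intergenic peak within 100 kb of a gene end (filled circles) and with a gene-end summit in both replicates (open squares), and dotted lines at the values of all protein-coding genes, 9.15% and 33.5%. Receptor, megakaryocyte, lymphoid, and stromal and endothelial genes have circles to the right of their squares, and ribosomal genes show the widest gap, with 5.36% and 87.5%.

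The gene with most distal sites was Thbs1, which encodes thrombospondin 1, an adhesive protein stored in platelet granules. All 11 of its sites lay inside the lncRNA gene Gm13986 (chr2:117857291-118111202), from 99937 to 197691 bp from Thbs1, and 9 of them shared a single window of 100 kb (chr2:117900001-118000000), the densest of all windows. Windows at Trib1 and at Ccr1 held 5 sites each, and 8 windows held 4, among them 1 at Slc38a2. From the site farthest from Thbs1 to the nearest, the fold enrichments in replicate 1 were 4.96, 6.37, 4.26, 3.98, 5.34, 4.81, 5.40, 6.91, 6.53, 3.10 and 4.16. In replicate 2, in the same order, they were 7.44, 7.11, 5.09, 8.50, 4.80, 2.83, 4.52, 4.46, 5.92, 5.85 and 5.06. The highest site of replicate 1 (6.91) had 4.46 in replicate 2, and the highest of replicate 2 (8.50) had 3.98 in replicate 1. Thbs1 itself (chr2:118111876-118127133) had a gene-end summit in both replicates.

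Trib1 had 6 sites on its higher-coordinate side, 51156 to 150788 bp away (chr15:59707976-59807945). From the nearest on they had fold enrichments of 3.69, 2.93, 3.72, 4.26, 6.32 and 3.10 in replicate 1, and of 7.17, 7.44, 5.10, 6.11, 5.69 and 4.52 in replicate 2. The highest site of replicate 1 was thus the fourth of 6 in replicate 2. Slc38a2, which encodes an amino acid transporter, also had 6 sites, on either side of the gene. One of them, 10043 bp from its start, was the strongest distal site of replicate 1, and the other 5 had replicate 1 values of 2.77 to 4.83 and replicate 2 values of 3.45 to 5.05.

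Chemokine receptor genes held 2 further groups. Ccr1 had 5 sites on its lower-coordinate side (chr9:123923787-123942573), with fold enrichments of 4.55, 4.84, 5.11, 5.97 and 6.12 in replicate 1 and 7.74, 5.18, 5.85, 5.85 and 7.17 in replicate 2 in order of position. The sites with 5.11 and 5.97 shared 1 replicate 2 peak. The 5 sites of Cxcr4 had 4.08, 4.10, 3.44, 5.07 and 5.69 in replicate 1 and 5.85, 5.71, 5.58, 4.53 and 6.11 in replicate 2, in order of position along chromosome 1. Both genes had gene-end summits in both replicates.

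The potassium channel tetramerisation domain gene Kctd12 and the death gene Bcl2l11 also had 5 sites each. The Kctd12 sites had 2.66 to 5.40 in replicate 1 and 4.77 to 6.68 in replicate 2. Bcl2l11 encodes BIM, which triggers apoptosis. Its 5 sites had 3.45 to 4.92 in replicate 1 and 3.45 to 4.25 in replicate 2, and 2 of them lay inside Morrbid, a lncRNA gene known to control Bcl2l11 in short-lived myeloid cells. A further 14 genes had 4 sites each. The first of them in alphabetical order were Cd24a, a surface glycoprotein gene (2.93 to 4.49 in replicate 1 and 2.82 to 6.38 in replicate 2), and Chd2.

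Chd2 encodes a chromatin remodeller and is neighboured by Chaserr, a lncRNA known to hold back its expression. Of its 4 sites, the one inside Chaserr (chr7:73556108-73557824) had 6.82 in replicate 1 and 15.9 in replicate 2, the highest value of a partner. The summit of that partner lay 1389 bp away, within 1000 bp of the end of another annotated gene, where the rule admits no distal site. Of shared replicate 2 peaks that were themselves distal intergenic, the highest had 13.3. The next site of Chd2 had 6.14 and 4.78, and the one after it 4.13 and 5.35. The fourth (chr7:73617703-73618826), outside any annotated gene between Chd2 and Fam174b, had 7.13 and 12.2. The first and the fourth were thus among the highest in both lists, and the sites between them stood near the median in replicate 2.

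**Figure D4:**
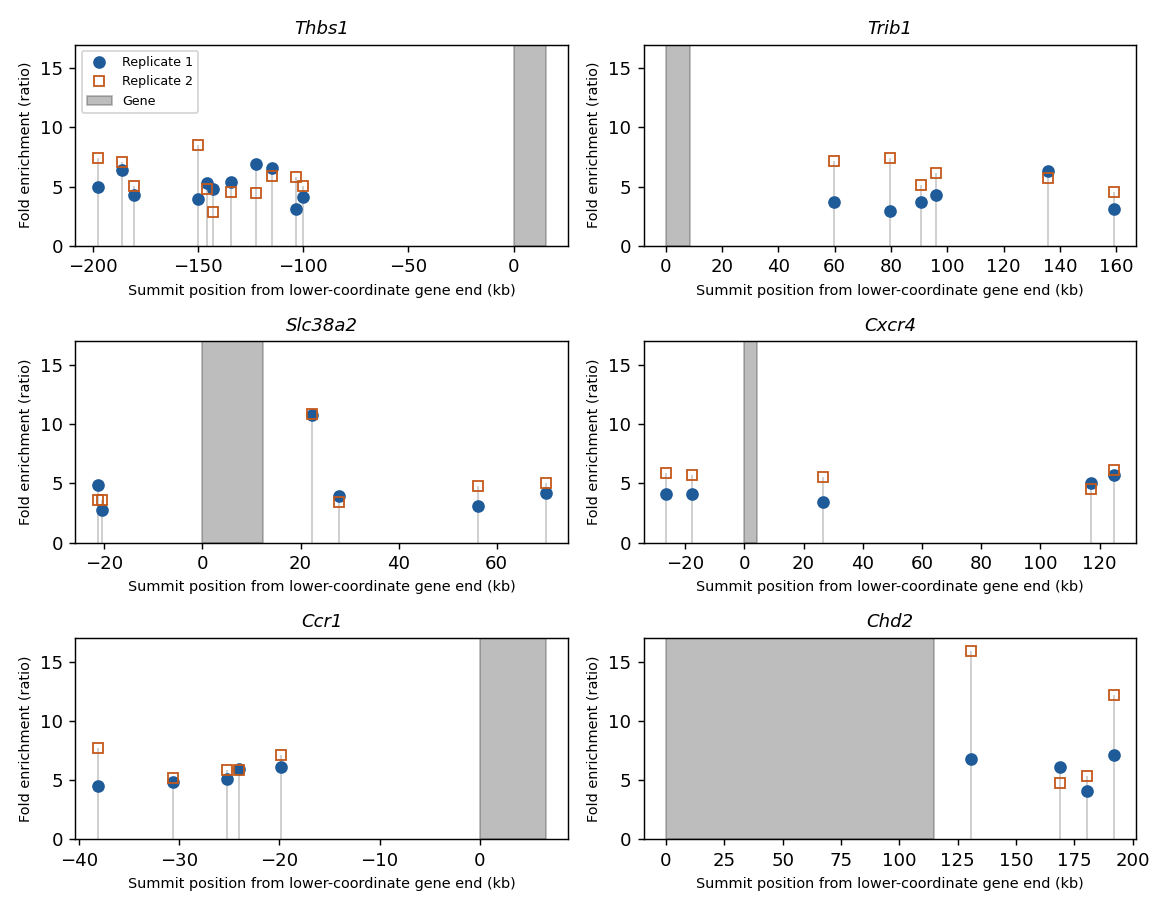
Distal intergenic peaks whose closest protein-coding gene was Thbs1, Trib1, Slc38a2, Cxcr4, Ccr1 or Chd2, by summit position from the lower-coordinate end of the gene (kb) and by the authors' fold enrichment in replicate 1 (filled circles) and in the replicate 2 partner (open squares), with the gene as a grey band. The 11 Thbs1 sites lie to 1 side of the gene at 3.10 to 6.91 in replicate 1, and the 2 outer Chd2 sites stand at 15.9 and 12.2 in replicate 2.

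The 12 sites that ranked highest, by the lower of their percentiles in the 2 lists, ranged from 5.98 to 10.8 in the first list and from 9.30 to 15.9 in the second. The fourth Chd2 site came first. The Slc38a2 site (chr15:96709402-96710576, 10.8 in replicate 1 and 10.9 in replicate 2) came second, and its summits were 90 bp apart. A site 162165 bp from the start of Zeb2 (chr2:45279002-45280212, 6.99 and 10.9) came next, ahead of the Chaserr site. Zeb2 had no gene-end summit in both replicates. The site near Zfp958 (chr8:4676953-4678884, 6.70 and 10.4), inside the lncRNA Gm6410, was 1932 bp wide and also among the 3 widest.

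A site 10378 bp from the 3′ end of Ifitm3, an antiviral membrane protein gene (chr7:140998742-140999666), had 7.88 in replicate 1 and 10.1 in replicate 2. A site 10903 bp from the start of Cd47, which encodes the signal that protects cells from phagocytosis (chr16:49839025-49840882), had 6.88 and 9.57. A site near Klrb1b, a natural killer cell receptor gene (chr6:128802906-128803611), had 6.32 and 10.4. None of these 3 genes had a gene-end summit in both replicates. Of the others, the site between the aryl hydrocarbon receptor gene Ahr and Agr3 (chr12:35799228-35799768) had 6.67 and 9.30, and the site near the tubulin gene Tuba1c (chr15:98992561-98994177) had 6.25 and 10.1. The sites near the kinase gene Rps6ka1 (chr4:133910225-133911145) and the kinetochore gene Kntc1 (chr5:123832057-123832901) both had 5.98 in replicate 1, with 10.2 and 10.1 in replicate 2. The other 2 of the 3 widest sites lay near Lmntd1 (1935 bp wide, 4.88 and 9.03) and near Rbx1 (2011 bp wide, 4.32 and 9.71).

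Although outside protein-coding genes, 234 distal sites (22.9%) had their summit inside another annotated gene, and 787 lay outside every gene. Of the 234, 218 were inside a lncRNA gene, and 171 different lncRNA genes held them. Gm13986 held 11, Lncpint, a lncRNA induced by p53, held 4 (4.03 to 8.14 in replicate 1 and 3.99 to 5.47 in replicate 2), and Dleu2, a lncRNA gene that hosts microRNAs, held 3 (3.69 to 6.84 and 4.14 to 8.77). Morrbid also held 3, and 28 lncRNA genes held 2 or more.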

How the data were processed

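Per the labels' protocols, cells were fixed for 10 min in 1% formaldehyde, and 10 ng of ChIP or input DNA went through 16 cycles of amplification. The submitters' processing notes name cutadapt, Trimmomatic, FastQC, Bowtie2, MACS2, ChIPseeker and mm10. For peak calling, control and cutoff are not given in the sources used here. Each ChIP library has 1 peak list that the authors deposited (12716 and 25807 peaks), called per library by its peak names. Fold enrichment, as deposited, is a ratio at the summit. The authors' −log10 q comes from the peak caller and starts at 1.31 and 1.30, and their −log10 p was not used. The deposited score was not used, and the deposited summit offset gave the summit. These are the authors' values and serve only to describe, rank and filter peaks within a list.

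Gene bounds, strands, start windows and microRNAs were those of RefSeq's GRCm38.p6 tables, in which 20661 protein-coding genes lay on chromosomes 1 to 19 and all 379 list entries were found, those on chromosome X not being counted. Strand was known for the closest gene of 774 of the 1021 peaks. The members and the 11 gene lists were chosen with earlier results of these data known. Sites were named by a rule: the 12 highest by the lower percentile of fold enrichment in the lists, up to 4 per gene list, the 10 genes and 5 windows of 100 kb with most sites, the 5 farthest, the 3 widest, and those at the limits, with ties in alphabetical or positional order. A result that this rule selects is not reported here. Groups hold 2 ChIP libraries and no contrast, so shares carry exact Clopper-Pearson 95% intervals and no test was made. The code was checked on simulated peak positions, labelled by the same distance rule on the same gene table. It returned 200 of 200 planted distal peaks among 400 with 0 false calls. This checks the code only, since no signal or peak calling was simulated. The planned GC and motif analysis of all peaks was not run, since no genome was used here. Alternatives changed the cutoffs, the overlap, the distances and the libraries used. Calculations used Python 3.11.15, numpy 2.4.6, pandas 2.3.3, scipy 1.17.1 and matplotlib 3.10.9.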

Additional observations from a re-analysis of the deposited data

Results flagged for a closer look

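Signal was also called on unplaced sequences of the assembly, which hold no position relative to genes and stayed out of the analysis. On GL456216.1 there were 4 peaks in replicate 1 and 6 in replicate 2, with fold enrichments of up to 15.3 and 16.5. On GL456370.1 there were 7 and 9, with up to 13.5 and 10.3. These sequences are given because each held more than 3 peaks in both replicates. No control library was analysed here, and whether the numbers exceed background was not tested.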

How the results depend on the processing

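Under every alternative run, the share of sites whose closest gene had a gene-end summit and the share of blood regulators with a site within reach stayed above those of all genes, and sizes moved. The number of distal sites was 351 at a −log10 q of 5 or more in each list, 130 at a fold enrichment of 5 or more, 576 with overlap of 50% of both peaks, 287 beyond 50000 bp, and 1381 to 3424 from a single library. As a share of shared peaks they were 5.99%, 5.17%, 9.69% and 2.55% under the first 4 of these settings. That share was 11.6% beyond 5000 bp, 11.04% without the condition on ends of other genes and 6.99% outside every gene. From a single library they were 10.9 to 13.4% of all peaks of that library, with or without a partner, which is an unlike base.

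The closest gene had a gene-end summit for 40.2% of sites at that −log10 q (22.3% of all genes by the same rule), 18.5% at that fold enrichment (10.1%), 50.9% beyond 50000 bp, 48.2% over both flanking genes, and 52.5 to 68.2% from a single library (34.2 to 47.3%). A neighbour within 25000 bp was found for 20.5% and 10.0% at the 2 cutoffs, 22.6% with 50% overlap, 27.6% with summits within 200 bp, 42.0% without the condition on other genes, 34.8% for replicate 2 peaks and 40.3 to 58.4% from a single library. It was 31.5% within 12.5 kb and 46.7% within 50000 bp.

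Closest genes were 1.44% and 0.566% of all genes at the 2 cutoffs, 2.28% with 50% overlap, 2.67% with summits within 200 bp, 4.60% and 0.963% beyond 5000 and 50000 bp, 4.18% without the condition on other genes, 2.88% outside every gene, 6.11% over both flanking genes and 4.58 to 9.04% from a single library. Blood regulators with a site within reach were 11.3% and 7.26% at the 2 cutoffs (4.14% and 1.55% of all genes), 5.65% beyond 50000 bp (0.891%), 16.9% within 50000 bp of the gene (5.16%), 38.7% within 250000 bp (19.3%) and 28.2 to 45.2% from a single library (11.9 to 22.4%). The cause of these moves was not tested. Of all values under alternatives, 45 left the interval of the reported value, or differed by over 1.5 times for a number of sites, and 27 did not. The depth is unknown, and replicate 2 gave more peaks than replicate 1. No paired analysis was possible because only 1 group has peak lists.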

Other observations

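Chromosomes X and Y, outside the rule, each held 1 shared peak that met its distance conditions. The mitochondrial genome held 3 peaks in each replicate, with fold enrichments of at most 2.23 in replicate 1 and 1.76 in replicate 2.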
